A study of Mus musculus with 9 samples.

Results

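The MYC, MAX and MXD network was followed here through 10 genes: Myc, Mycn, Mycl, Max, Mxd1, Mxd3, Mxd4, Mxi1, Mnt and Mlx. They were taken by symbol from a table of 48709 mouse genes, all 10 were in it, and 9 were abundant enough to test. The study profiled RNA of CD8+ T cells, the killer lineage of T cells, in 3 groups of 3 libraries. CTRL cells had no OVA peptide, a fragment of ovalbumin used as a model antigen. OVA cells had the peptide, and OVA/Citra cells had the peptide together with citraconate, a small dicarboxylic acid isomeric with itaconate. The stated aim was to see how citraconate affects the transcriptome of CD8+ T cells with and without this peptide. The sources used here give no strain, age or T cell receptor of the mice, no citraconate dose, no time in culture and no earlier activation of the cells. The extraction text calls the cells PAS-T cells without defining the name. No group with citraconate and no peptide was analysed here, so the compound can be compared only in the presence of OVA peptide. The labels do not say whether replicates were separate mice or separate cultures, so the p-values speak only of the spread among these libraries, which may be technical.

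MYC is a transcription factor that binds DNA as a dimer with MAX, most tightly at the E-box sequence CACGTG, and raises transcription of genes for ribosome production, translation, metabolism and cell division. The MXD proteins, with MXI1 among them, and MNT compete for MAX and, as dimers with it, bring SIN3 and histone deacetylases to the same sites, which lowers transcription. MLX stands beside MAX: it pairs with some of the MXD proteins and MNT and with the nutrient-responsive factors MondoA (gene Mlxip) and ChREBP (gene Mlxipl). In CD8+ T cells, antigen receptor signalling and interleukin-2 raise MYC, and MYC drives the growth that precedes division.

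The E-box itself stands in several promoters of the network. It was searched as CACGTG, which reads the same on both strands, in RefSeq promoter windows of 300 bases (250 before and 50 after the annotated start, build GRCm38.p6). Of the 10 members, 9 had a window, and 4 of these held the motif. Myc was without an entry. The motif was in 7.15% of all 32851 windows, and 12.0% of the 8896 tested genes with a window held it. The members with the motif were Max, Mxd4, Mnt and Mlx. Their sites are shown with the motif in capitals and flanking bases in lower case, read 5′ to 3′ on the strand of the gene.
Max, chr12:76962234-76962263, minus strand, motif 3 bases before the start: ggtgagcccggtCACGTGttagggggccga
Mxd4, chr5:34187912-34187941, minus strand, motif 219 bases before the start: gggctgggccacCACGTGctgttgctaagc
Mnt, chr11:74830789-74830818, plus strand, motif 123 bases before the start: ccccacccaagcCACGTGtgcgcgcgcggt
Mlx, chr11:101087238-101087267, plus strand, motif 40 bases before the start: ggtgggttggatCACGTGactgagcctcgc
The letters are not in the windows of Mycn, Mycl, Mxd1, Mxd3 or Mxi1. A match is a run of letters in the reference and not a measured binding site.

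Levels are given as TPM, a transcript unit that is scaled for library size and gene length and so allows genes to be set beside one another. Whole reads could be recovered from these values, and they came to between 14754470 and 17384330 per library. Myc rested on 2289 to 12623 reads per library, Max on 976 to 1539, and Mnt on 953 to 1226. Mlx rested on 517 to 934 reads, Mxd4 on 490 to 1003, Mxi1 on 346 to 1712, Mxd1 on 182 to 461, Mycn on 76 to 480 and Mxd3 on 63 to 787. Mycl rested on only 3 to 14 reads. A gene was tested when its mean reached 1 TPM in any group, which 11971 genes did. It was called when its Benjamini-Hochberg adjusted p over all of them was under 0.05 in limma on log2(TPM + 1). Log2 changes are on that scale, which understates the change of low genes.

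Markers of CD8 T cells were high in every library. Their summed level was 7897 to 8307 TPM in CTRL, 4041 to 5053 in OVA and 6861 to 7164 in OVA/Citra. By limma, 7 of 8 were called lower in OVA than in CTRL and 7 of 8 higher in OVA/Citra than in OVA. All 8 markers of dividing cells moved in the same way, lower with OVA and higher with added citraconate. Mki67, for example, was at 299.0 ± 39.7 TPM in CTRL, 108 ± 19.4 in OVA and 201 ± 18.6 in OVA/Citra (SD, n = 3). All 6 markers of natural killer cells moved the other way: their sum was 4.72 to 7.22 TPM in CTRL, where Ncr1 was at 0, 725.2 to 1126 in OVA and 143.5 to 232.0 in OVA/Citra. The summed CD4 T cell markers were at 53.9 to 60.8 TPM in CTRL, 19.6 to 21.4 in OVA and 18.3 to 19.9 in OVA/Citra. Most of that sum came from Zbtb7b and, in CTRL, Cd40lg, while Cd4 itself averaged 2.62, 1.27 and 1.02 TPM. The stromal and epithelial markers summed to 1.68 to 2.72, 28.9 to 41.3 and 14.4 to 17.9 TPM, mostly from Epcam, which was called higher with OVA and lower with citraconate added. Erythroid and platelet markers summed to at most 3.42 TPM. The summed B cell markers were at 13.6 to 15.3 TPM in CTRL, 0.44 to 1.165 in OVA and at most 0.596 in OVA/Citra. The summed myeloid markers were at 12.1 to 14.6 TPM in CTRL, 23.8 to 29.3 in OVA and 17.8 to 25.6 in OVA/Citra. Of 3 tested myeloid markers, 2 were called higher with OVA and 2 lower with citraconate added. All these marker counts stand beside 32.1% of all tested genes called higher and 39.8% lower with OVA. In OVA/Citra against OVA, 37.8% of all tested genes were called higher and 21.2% lower. Myc and most of its antagonists moved along with the CD8 and dividing cell sets and opposite to the natural killer set, and the part of any of these marker sets in the changes below was not tested. In bulk RNA, fewer cells of a type and less RNA per cell cannot be told apart.

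Myc was the most abundant member in every group. It stood at 652.5, 645.4 and 658.3 TPM in the CTRL libraries, at 141.6, 129.1 and 185.9 in OVA, and at 558.0, 534.4 and 551.6 in OVA/Citra. The 3 groups did not overlap: CTRL was highest, OVA/Citra lay below it and OVA was far below both. The group means were 652.0 ± 6.45, 152.2 ± 29.8 and 548.0 ± 12.2 TPM (SD, n = 3), which placed Myc 194th, 929th and 231st among all genes by mean level. Myc fell 4.28-fold with OVA peptide, a log2 change of -2.11 (SE 0.107, adjusted p = 1.05e-07, limma). With citraconate added to the peptide it was 3.6-fold higher than with the peptide alone, a log2 change of 1.86 (adjusted p = 5.32e-06). All genes tested had a median change of 0.12 in that second comparison, and relative to this median Myc changed by 1.73. In the first comparison the median of all genes was -0.08.

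OVA/Citra cells held 84.0% of the CTRL level of Myc. The fitted log2 difference between OVA/Citra and CTRL was -0.25, with a 95% interval of -0.488 to -0.013 and an adjusted p of 0.0659 (limma), so it was not called, although the 3 libraries of each group did not overlap. The result sat close to the threshold, and 13 of 19 alternatives left it uncalled, with adjusted p-values up to 0.141. It was called in the other 6: when only these 6 libraries were fitted (adjusted p = 0.000986), under median-of-ratios scaling (0.022), with voom weights on the recovered reads (0.0476), with a replicate block (0.0427), and without OVA replicate 2 (0.0229) or OVA replicate 3 (0.00154). All 3 OVA libraries enter the shared estimate of spread, and they are the ones that varied most in Myc. Whether that spread decided the calls was not tested.

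Mycn, the paralogue best known from neural tissue, took another course. Its libraries were at 22.6, 23.8 and 20.2 TPM in CTRL, at 9.21, 17.5 and 9.88 in OVA, and at 3.84, 7.37 and 3.76 in OVA/Citra. The levels stepped down from CTRL to OVA to OVA/Citra with no overlap, and replicate 2 was the highest library in both peptide groups. Mycn fell by 0.86 on the log2 scale with OVA (SE 0.254, adjusted p = 0.0111) and fell again when citraconate was added, by 1.14 (adjusted p = 0.00331), or 1.26 relative to the median of all genes. In OVA/Citra it was 4.44-fold lower than in CTRL (log2 change -2.00, adjusted p = 8.93e-05). Mycn made up on average 3.29% of the summed Myc and Mycn transcripts in CTRL, 7.70% in OVA and 0.907% in OVA/Citra. The OVA libraries were at 6.11%, 11.9% and 5.05%, so replicate 2 raised that mean. Leaving out 1 library at a time gave log2 changes for OVA against CTRL between -1.134 and -0.705, with adjusted p-values up to 0.0472.

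Mycl was close to absent and was not tested. It was at 0.128, 0.121 and 0.322 TPM in CTRL, at 0.266, 0.541 and 0.465 in OVA, and at 0.124, 0.584 and 0.192 in OVA/Citra. These ranges overlapped, and with 3 to 14 reads per library and no test a difference is neither shown nor excluded.

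Max, the shared dimer partner, was the next most abundant member after Myc in each group and was called higher in both peptide groups than in CTRL. Its libraries were at 91.7, 79.5 and 78.6 TPM in CTRL, at 98.3, 109.2 and 106.1 in OVA, and at 124.4, 109.5 and 118.7 in OVA/Citra. Both peptide groups lay above CTRL, and the lowest OVA/Citra library was only just above the highest OVA library. Max rose 1.26-fold with OVA (log2 change 0.33, SE 0.0742, adjusted p = 0.00252). OVA/Citra was 0.17 above OVA on the log2 scale and was not called (adjusted p = 0.0761). Relative to the median of all genes that difference was 0.04, with a 95% interval of -0.122 to 0.209. Against CTRL, Max was 1.41-fold higher in OVA/Citra (log2 change 0.49, adjusted p = 0.000268). In OVA cells the mean of Max reached 104.5 ± 5.62 TPM beside 152.2 ± 29.8 for Myc.

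**Figure D1:**
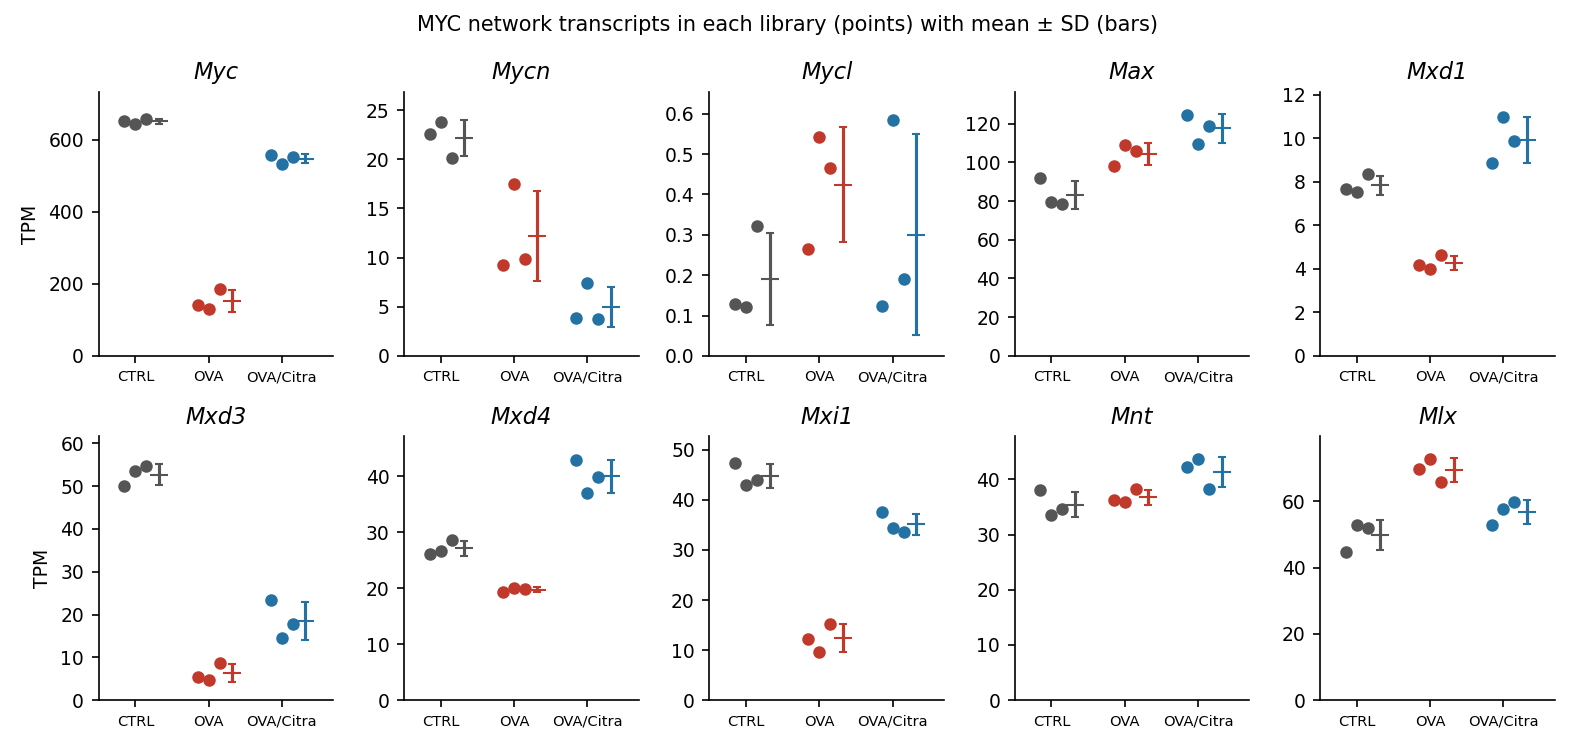
Level of each of the 10 network genes in TPM (vertical axis, from 0, with its own scale per gene) in the 3 libraries of CTRL, OVA and OVA/Citra, with the mean ± SD beside the points. Myc, Mxd3 and Mxi1 are low in all 3 OVA libraries, Mycn steps down from CTRL to OVA/Citra, and Mnt lies between 33.6 and 43.6 TPM throughout.

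Among the antagonists, Mxd3 fell furthest. It is the MXD gene known for its expression in dividing cells, where most of the family marks cells that leave the cycle. It stood at 50.0, 53.4 and 54.6 TPM in CTRL, at 5.45, 4.73 and 8.75 in OVA, and at 23.3, 14.4 and 17.8 in OVA/Citra. No group overlapped another, and OVA/Citra lay between the other groups. Mxd3 fell 8.35-fold with OVA (log2 change -2.91, SE 0.200, adjusted p = 6.93e-07) and was 2.93-fold higher with citraconate than with the peptide alone (log2 change 1.43, adjusted p = 0.000201, 1.31 relative to the median). It remained at 35.1% of CTRL in OVA/Citra (log2 change -1.49, adjusted p = 0.000131). In mouse annotation the exons of Mxd3 overlap those of Prelid1 on the opposite strand. Prelid1 was at 1334, 901.6 and 1086 TPM in CTRL, OVA and OVA/Citra, moved the same way by less (log2 changes -0.57 and 0.27), and reads in the shared stretch cannot be told apart without the strand setting of the counting.

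Mxi1 encodes an MXD protein with broad expression. Its libraries were at 47.4, 43.0 and 44.0 TPM in CTRL, at 12.3, 9.61 and 15.3 in OVA, and at 37.6, 34.3 and 33.6 in OVA/Citra. The order of the groups was that of Myc, again without overlap. It fell 3.61-fold with OVA (log2 change -1.79, SE 0.130, adjusted p = 9.93e-07) and was 2.84-fold higher with citraconate than without it (log2 change 1.45, adjusted p = 1.95e-05, 1.33 relative to the median). The remaining difference from CTRL was -0.34 in OVA/Citra (adjusted p = 0.0438). That call was lost in 11 of 19 alternative analyses, among them each analysis that left out 1 CTRL or 1 OVA/Citra library.

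Mxd1 and Mxd4 fell with OVA and in OVA/Citra passed the CTRL level. Mxd1, the founding MXD gene, which is linked to differentiation, was at 7.67, 7.52 and 8.35 TPM in CTRL, at 4.16, 4.02 and 4.62 in OVA, and at 8.88, 11.0 and 9.88 in OVA/Citra. It fell 1.84-fold with OVA (log2 change -0.75, SE 0.0998, adjusted p = 6.98e-05) and was 2.33-fold higher in OVA/Citra than in OVA (log2 change 1.05, adjusted p = 2.5e-05, 0.93 relative to the median). Its excess over CTRL in OVA/Citra was small, 0.30 on the log2 scale (adjusted p = 0.025). This call was lost without CTRL replicate 1, CTRL replicate 2, OVA/Citra replicate 2 or OVA/Citra replicate 3.

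Mxd4 stood at 26.0, 26.6 and 28.6 TPM in CTRL, at 19.3, 20.0 and 19.9 in OVA, and at 42.8, 37.0 and 39.9 in OVA/Citra. The OVA libraries lay within 1 TPM of each other and below every CTRL library. Mxd4 fell 1.37-fold with OVA (log2 change -0.44, SE 0.0688, adjusted p = 0.000226) and was 2.02-fold higher with citraconate added (log2 change 0.98, adjusted p = 7.17e-06, 0.85 relative to the median). In OVA/Citra it was 1.47-fold above CTRL (log2 change 0.54, adjusted p = 8.94e-05). Of the E-boxes shown above, the one of Mxd4 lies farthest from its start.

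Mnt, the broadly expressed antagonist, was the most even member. Its libraries were at 38.0, 33.6 and 34.7 TPM in CTRL, at 36.2, 35.8 and 38.3 in OVA, and at 42.2, 43.6 and 38.2 in OVA/Citra. CTRL and OVA overlapped, and so did OVA and OVA/Citra. OVA differed from CTRL by 0.05 on the log2 scale (95% interval -0.102 to 0.209, adjusted p = 0.503, limma). OVA/Citra differed from OVA by 0.16 (adjusted p = 0.0669), which is 0.04 relative to the median of all genes (95% interval -0.116 to 0.195). Against CTRL it was higher in OVA/Citra by 0.22 (adjusted p = 0.0213), a call lost without CTRL replicate 2, CTRL replicate 3, OVA/Citra replicate 1 or OVA/Citra replicate 2.

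The makeup of the antagonist pool differed between the groups: 4 of the 5 antagonists fell with OVA, and Mnt was not called. Of all genes tested, 39.8% were called lower in that comparison. The summed level of Mxd1, Mxd3, Mxd4, Mxi1 and Mnt was 164.1 to 170.2 TPM in CTRL, 74.2 to 86.8 in OVA and 139.3 to 154.8 in OVA/Citra. Mnt made up 21.1% of that sum in CTRL, 46.4% in OVA and 28.6% in OVA/Citra. Mxd3 made up 31.4%, 7.83% and 12.7%, and Mxi1 26.7%, 15.5% and 24.3%. Mxd4 held 16.1%, 24.9% and 27.6%. Mxd3 had the largest share in every CTRL library and Mnt in every OVA library. In OVA/Citra the means of Mnt and Mxd4 were close, and Mxd4 was ahead in replicates 1 (27.7% against 27.3%) and 3 (28.6% against 27.4%). These shares compare transcripts per length and say nothing of protein.

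The ratio of Myc to the summed antagonists followed Myc but moved less. It was 3.86, 3.93 and 3.87 in CTRL, 1.83, 1.74 and 2.14 in OVA, and 3.61, 3.81 and 3.96 in OVA/Citra. The OVA libraries lay below all others, and the OVA/Citra range spanned the CTRL range. With Mnt out of the sum the mean ratios were 4.93 in CTRL, 3.55 in OVA and 5.31 in OVA/Citra, so OVA remained lowest but OVA/Citra then lay above CTRL. Mean ratios were 3.89 ± 0.0395, 1.90 ± 0.211 and 3.79 ± 0.177 (SD, n = 3). The ratio of Myc to Max separated all 3 groups, at 7.87 ± 0.667, 1.46 ± 0.285 and 4.67 ± 0.197, and that of the antagonists to Max was 2.03 ± 0.165, 0.762 ± 0.0727 and 1.23 ± 0.0543. No test was made on these ratios.

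**Figure D2:**
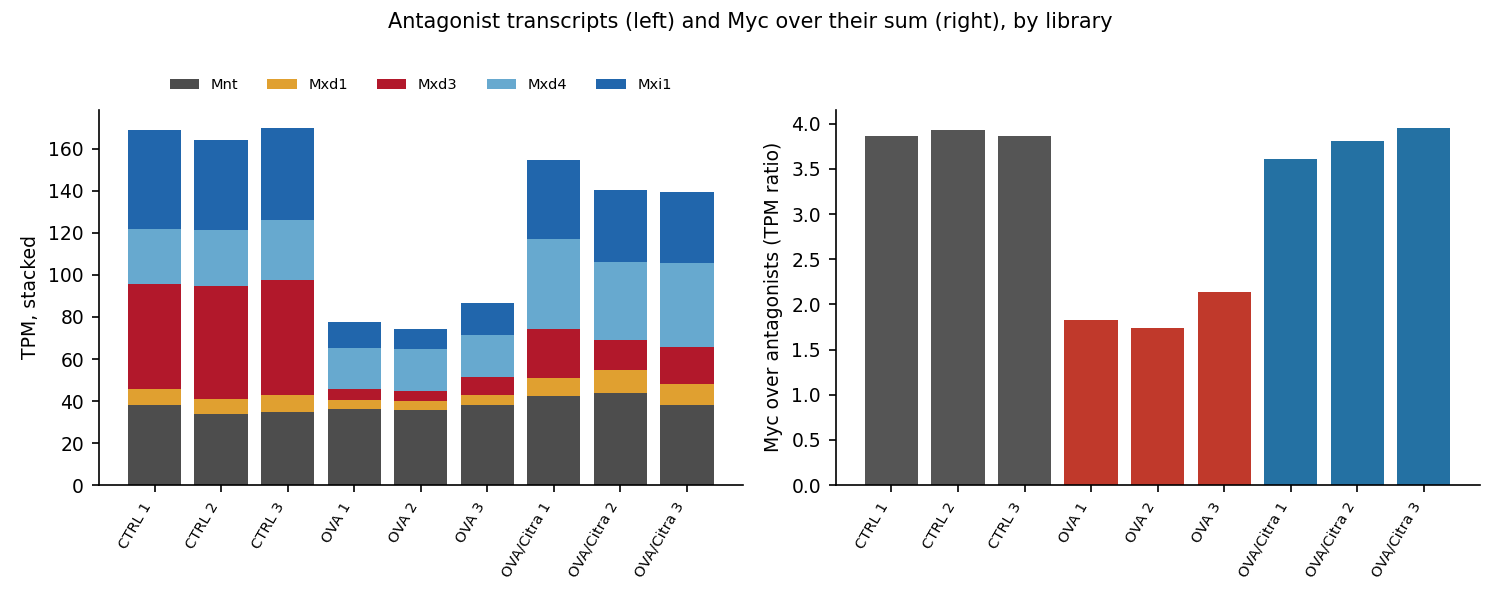
Left, TPM of Mnt, Mxd1, Mxd3, Mxd4 and Mxi1 stacked for each of the 9 libraries; right, Myc divided by that sum in each library. The stacks are lowest in the 3 OVA libraries, where Mnt is the largest piece, and the ratio lies between 1.74 and 2.14 there and at 3.61 or above in the other 6 libraries.

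Mlx went against Myc. Its libraries were at 44.7, 53.0 and 51.9 TPM in CTRL, at 69.8, 72.9 and 65.9 in OVA, and at 52.8, 57.8 and 59.7 in OVA/Citra. OVA was above both other groups, which overlapped in 1 library of OVA/Citra. Mlx rose 1.39-fold with OVA (log2 change 0.47, SE 0.0771, adjusted p = 0.000281) and was 1.23-fold lower in OVA/Citra than in OVA (log2 change -0.29, adjusted p = 0.00865, -0.41 relative to the median). It was 0.19 above CTRL in OVA/Citra, not called (adjusted p = 0.0604). The exons of Mlx overlap those of Psmc3ip on the opposite strand, which was at 12.4, 12.5 and 14.6 TPM. Of the other partners, Mlxip (MondoA) fell by 0.26 with OVA (adjusted p = 0.0182), from 16.4 to 13.5 TPM, and was at 14.9 TPM in OVA/Citra, 0.14 above OVA and not called (adjusted p = 0.183). Mga, another MAX partner, was called in neither comparison, and Mlxipl was too low to test.

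Over the 9 tested members, 8 were called between OVA and CTRL, 2 higher and 6 lower, with Mnt not called. Of all genes tested, 71.9% were called in that comparison, 32.1% higher and 39.8% lower, so the count is near the background. In size, 3 members, Myc, Mxd3 and Mxi1, were called and changed at least 2-fold, as were 21.5% of all genes, and the median log2 change of the 9 was -0.75 beside -0.08 for all genes. Between OVA/Citra and OVA, 7 were called, 5 higher and 2 lower, with 59.0% of all genes called, 37.8% higher and 21.2% lower. Here 5 of the 9 were called and changed at least 2-fold on the log2(TPM + 1) scale, as were 12.0% of all genes, and the median of the 9 was 0.98 beside 0.12. Between OVA/Citra and CTRL, 7 were called, 4 higher and 3 lower, beside 59.4% of all genes, with 33.1% higher and 26.3% lower. The groups did not overlap for 8 of 9 members in each comparison, while 75.0%, 66.1% and 67.4% of all genes did not overlap in OVA against CTRL, OVA/Citra against OVA and OVA/Citra against CTRL. Without OVA/Citra replicate 2 only 4 members were called between OVA/Citra and CTRL. The OVA libraries serve in both of the first 2 comparisons, so an opposite sign in them is partly built in.

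**Figure D3:**
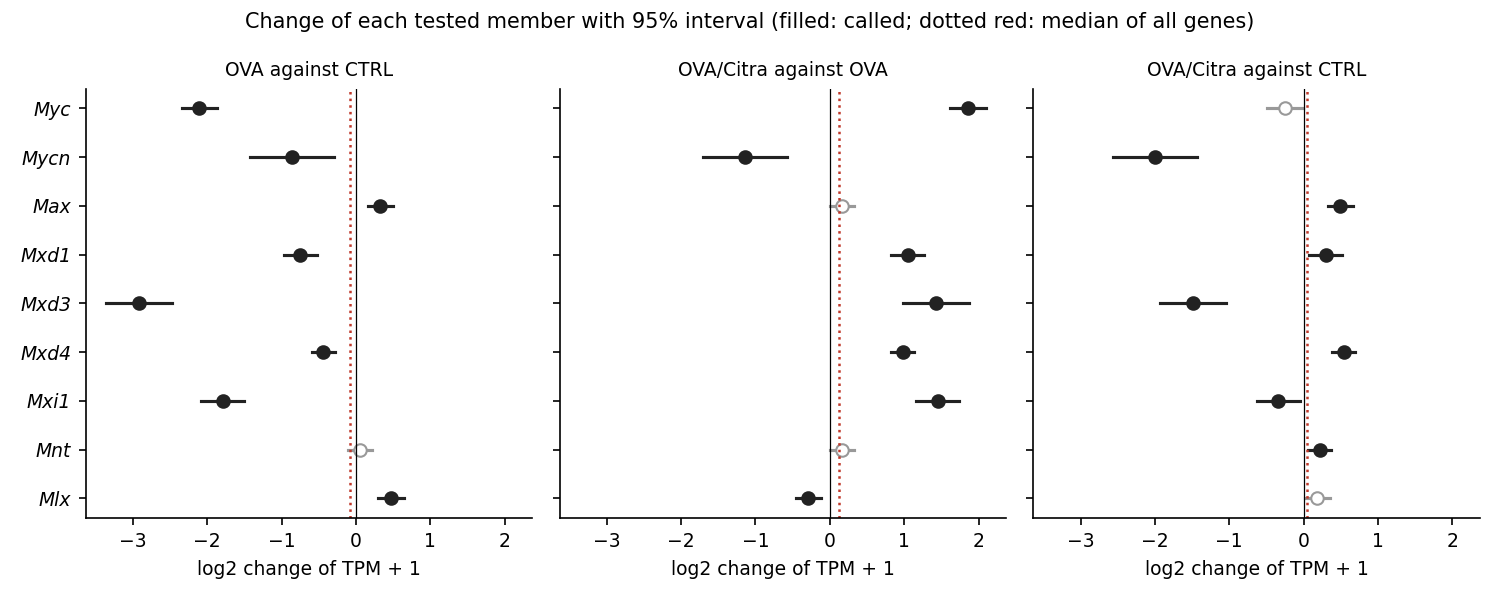
Log2 change of TPM + 1 (horizontal axis) of the 9 tested members with its 95% interval in the 3 comparisons; filled points were called by limma, and the dotted line is the median of all tested genes. Myc, Mxd3 and Mxi1 lie far left in OVA against CTRL and right in OVA/Citra against OVA, Mycn lies left in all 3, and Max and Mnt lie close to the dotted line in OVA/Citra against OVA.

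Genes known as MYC targets were then described in lists by function. Their counts stand beside 32.1% of all tested genes higher and 39.8% lower with OVA (median -0.08), and 37.8% higher and 21.2% lower in OVA/Citra against OVA (median 0.12), and both comparisons again share the OVA libraries. The promoter windows of 8 of the list genes named below held the E-box, all shown with the motif in capitals: genes that rose with OVA (Hspd1, Phb, Grwd1, Set and Arrdc4) and genes that fell (Ldha, Impdh2 and Paics).
Hspd1, chr1:55088306-55088335, minus strand, motif 80 bases before the start: ggccggctgggaCACGTGaaaaggccgcgc
Phb, chr11:95666713-95666742, plus strand, motif 232 bases before the start: ttgaggaataggCACGTGcatatattacca
Grwd1, chr7:45830740-45830769, minus strand, motif 35 bases after the start: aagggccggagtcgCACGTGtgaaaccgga
Set, chr2:30061850-30061879, plus strand, motif 134 bases before the start: gccacaggcttcCACGTGcaacccggggtt
Arrdc4, chr7:68749414-68749443, minus strand, motif 193 bases before the start: aaaggtcctgtgCACGTGcactatggtgtc
Ldha, chr7:46845647-46845676, plus strand, motif 145 bases before the start: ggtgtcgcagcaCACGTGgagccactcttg
Ldha, chr7:46845744-46845773, plus strand, motif 48 bases before the start: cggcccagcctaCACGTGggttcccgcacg
Impdh2, chr9:108560314-108560343, plus strand, motif 110 bases before the start: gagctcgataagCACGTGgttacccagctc
Paics, chr5:76951087-76951116, plus strand, motif 203 bases before the start: cgcctcggaaagCACGTGgagggacctgct
By list, the motif is counted over genes with a window, beside 12.0% of all tested genes with a window. It was in 5 of 19 genes for ribosome biogenesis, 7 of 16 for translation and folding, and 4 of 20 for metabolism and transport. Among cell cycle genes it was in 1 of 10, and among genes repressed by MYC in 1 of 9.

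The ribosome biogenesis targets moved against Myc. Of 25 genes, 23 rose with OVA, Tcof1 fell and Fbl was not called, with a median log2 change of 0.55. In OVA/Citra against OVA, none rose and 24 fell, with a median of -0.39, and Tcof1 was the gene not called. Bop1, which helps mature the large ribosomal subunit, was at 72.7 ± 2.32 TPM in CTRL, 155.5 ± 9.26 in OVA and 96.4 ± 5.85 in OVA/Citra (SD, n = 3). Its log2 changes were 1.09 (adjusted p = 2.12e-07) and -0.68 (1.94e-05). Nop16, a nucleolar protein, rose by 1.06 with OVA and fell by 0.56 when citraconate was added. Rrp9, a component of the small-subunit processome, was at 44.3, 82.1 and 44.7 TPM, and Grwd1, a ribosome assembly factor, at 36.4, 70.1 and 42.5 TPM. The most abundant gene of the list, nucleophosmin (Npm1), rose from 1469 ± 11.8 to 1854 ± 20.4 TPM and was at 1498 ± 29.6 TPM in OVA/Citra.

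Targets in translation and protein folding did the same. Of 16 genes, 13 rose and 1 fell with OVA (median 0.50), and 1 rose and 13 fell in OVA/Citra against OVA (median -0.22). Hspd1, the mitochondrial chaperonin, was at 342.0 ± 13.7, 666.6 ± 18.7 and 508.2 ± 35.4 TPM in CTRL, OVA and OVA/Citra, with log2 changes of 0.96 (adjusted p = 3e-07) and -0.39 (0.00027). Prmt5, an arginine methyltransferase, was at 96.9 ± 2.55, 183.9 ± 13.6 and 105.9 ± 3.42 TPM. Hspe1, the co-chaperonin of Hspd1, rose by 0.92 and fell by 0.45. Phb (prohibitin) rose by 0.37 and fell by 0.47. The gene that rose with citraconate added was the chaperonin subunit gene Tcp1 (0.25, adjusted p = 0.0102). The exception with OVA was Ptma (prothymosin alpha), the most abundant gene of the list, which fell by 0.73 (adjusted p = 3.5e-06), from 6662 to 4014 TPM, and was at 4047 TPM in OVA/Citra.

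Targets in metabolism and transport changed in both directions. With OVA, 15 of 24 rose and 9 fell (median 0.48), and in OVA/Citra against OVA 5 rose and 11 fell (median -0.13). The amino acid transporter gene Slc7a5 was at 138.3 ± 5.31 TPM in CTRL, 484.4 ± 50.4 in OVA and 163.9 ± 32.7 in OVA/Citra, with log2 changes of 1.80 (adjusted p = 6.1e-07) and -1.57 (9.45e-06). Spermidine synthase (Srm) rose by 1.49 and fell by 1.14. The transferrin receptor gene Tfrc rose at both steps, by 0.71 and 0.68, from 88.9 ± 4.03 to 147.1 ± 24.1 and 235.1 ± 23.5 TPM. The 9 that fell with OVA were Ldha, Hk2, Pkm, Eno1 and Slc2a1, which serve glucose uptake and glycolysis, and Impdh2, Paics, Ahcy and Prps2. Pyruvate kinase (Pkm) was at 4979 ± 134.6, 2553 ± 149.2 and 3109 ± 177.7 TPM, a log2 change of -0.96 with OVA (adjusted p = 4.57e-07) and 0.28 with citraconate added (0.0029). Lactate dehydrogenase A (Ldha) fell by 0.68 with OVA and differed by 0.06 in OVA/Citra against OVA, not called (adjusted p = 0.469).

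Cell cycle and transcription factor targets moved with Myc. Of 13 genes, 2 rose and 10 fell with OVA (median -0.83), and 8 rose and none fell in OVA/Citra against OVA (median 0.30). E2f2, an activator of S-phase genes, was at 97.0 ± 4.21 TPM in CTRL, 11.3 ± 4.20 in OVA and 33.6 ± 5.43 in OVA/Citra, with log2 changes of -3.06 (adjusted p = 8.21e-07) and 1.55 (0.000195). Tfap4, a factor that prolongs the response begun by MYC in activated CD8+ T cells, fell by 1.10 with OVA and differed by 0.22 with citraconate, not called (adjusted p = 0.114). Cks2, a cyclin-dependent kinase partner, fell by 1.06 and rose by 0.51. Tert, the telomerase reverse transcriptase gene, was at 1.14 ± 0.358, 0.440 ± 0.0276 and 1.69 ± 0.320 TPM, with log2 changes of -0.56 (adjusted p = 0.00865) and 0.89 (0.000764). The genes that rose with OVA were the cyclins Ccnd2 (0.71, adjusted p = 5.24e-05) and Ccne1 (0.19, adjusted p = 0.0322). All 8 markers of dividing cells fell with OVA (median -1.40) and rose in OVA/Citra against OVA (median 0.79), so this list moved with them. Top2a was at 302.1 ± 23.9, 101.0 ± 14.3 and 194.0 ± 18.1 TPM, and Birc5 at 131.6 ± 3.87, 46.9 ± 6.79 and 75.7 ± 6.998 TPM.

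Genes that MYC is known to repress did not move as a mirror of Myc. Of 10 genes, 2 rose and 6 fell with OVA (median -0.84), and 6 rose and 1 fell in OVA/Citra against OVA (median 0.88). Ndrg2, a gene of the N-myc downstream-regulated family, was at 53.3 ± 2.73, 3.72 ± 2.33 and 25.8 ± 4.49 TPM in CTRL, OVA and OVA/Citra, with log2 changes of -3.63 (adjusted p = 1.22e-06) and 2.60 (4.1e-05). Its relative Ndrg1 fell by 2.72 with OVA and differed by 0.38 with citraconate, not called (adjusted p = 0.106). Btg2, an antiproliferative gene, was at 37.3 ± 3.05, 16.5 ± 1.94 and 68.6 ± 10.1 TPM. The cell cycle inhibitor Cdkn1a was opposite to these, at 152.1 ± 3.59, 284.4 ± 29.2 and 200.2 ± 34.4 TPM, with log2 changes of 0.89 (adjusted p = 3.68e-05) and -0.51 (0.00249). Cdkn2b also rose with OVA (log2 change 1.10, adjusted p = 0.00315) and differed by -0.37 with citraconate added, not called (adjusted p = 0.245).

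**Figure D4:**
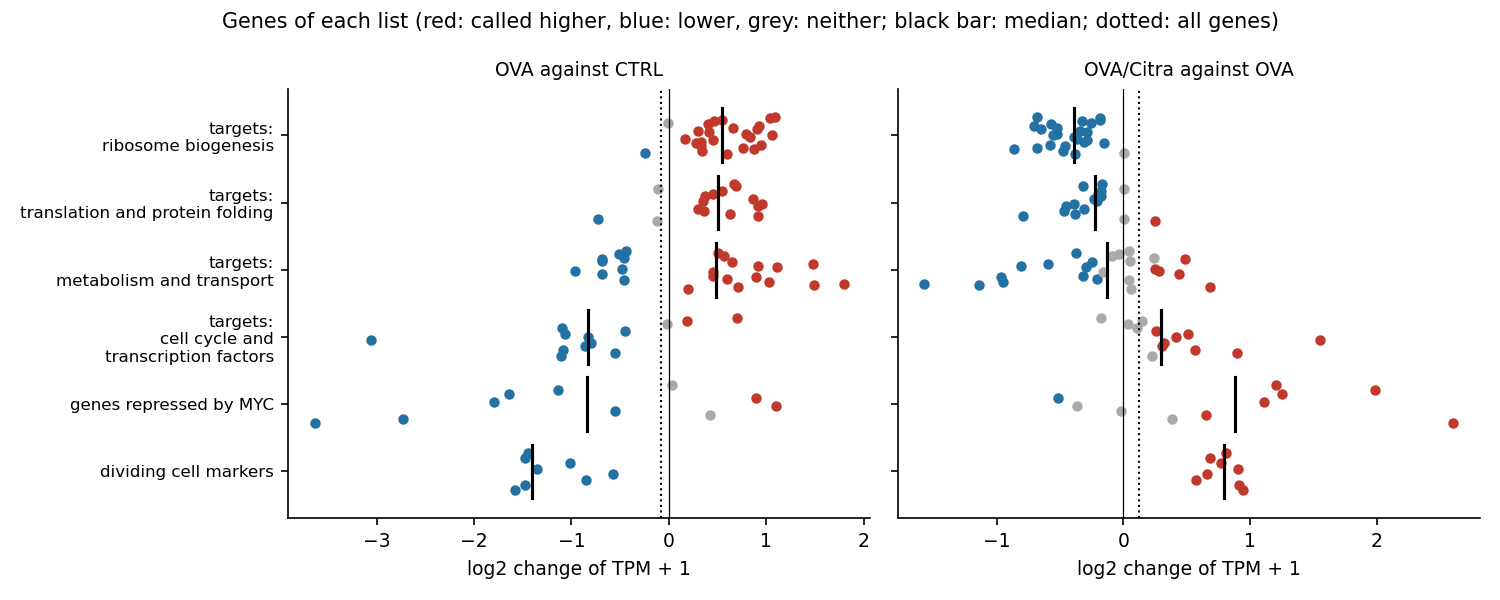
Log2 change of TPM + 1 (horizontal axis) of each gene in 4 lists of MYC targets, in the genes MYC represses and in the dividing cell markers, for OVA against CTRL (left) and OVA/Citra against OVA (right); black bars are list medians and the dotted line is the median of all tested genes. Most ribosome biogenesis and translation genes lie right of 0 in the left panel and left of 0 in the right panel. Most cell cycle genes and all dividing cell markers lie the other way.

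In OVA/Citra against CTRL, 33.1% of all tested genes were higher and 26.3% lower (median 0.04). Ribosome biogenesis had 12 genes higher and 3 lower of 25 (median 0.14), translation and folding 10 higher and 1 lower of 16 (median 0.22), and metabolism and transport 9 higher and 8 lower of 24 (median 0.12). Cell cycle targets had 2 higher and 8 lower of 13 (median -0.48), and the dividing cell markers 0 higher and 6 lower of 8 (median -0.51). Genes repressed by MYC had 5 higher and 5 lower of 10. For the targets of MLX complexes, Txnip, which restrains glucose uptake, was at 347.4 ± 19.5 TPM in CTRL, 207.0 ± 6.02 in OVA and 169.4 ± 8.88 in OVA/Citra, called lower at each step (adjusted p = 1.38e-06 and 0.00159). Its relative Arrdc4 went the other way with OVA, from 0.532 ± 0.266 to 5.30 ± 1.64 TPM, and was at 1.48 ± 0.355 TPM in OVA/Citra (log2 changes 2.02 and -1.33).

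The corepressor genes that MXD and MNT rely on were listed next. Of 10 genes (with the MYC partner MIZ-1, gene Zbtb17), 1 rose and 6 fell with OVA (median -0.33), and 8 rose and none fell in OVA/Citra against OVA (median 0.33). Beside these counts stand 32.1% of all tested genes higher and 39.8% lower with OVA (median -0.08). In OVA/Citra against OVA, 37.8% of all tested genes were higher and 21.2% lower (median 0.12). Under median-of-ratios scaling the count for this list in OVA/Citra against OVA was 5 higher and 1 lower. Sap30, a subunit of the SIN3 complex, was at 178.9 ± 13.4, 49.9 ± 6.88 and 69.8 ± 16.8 TPM in CTRL, OVA and OVA/Citra (log2 changes -1.83, adjusted p = 3.77e-06, and 0.45, adjusted p = 0.0334). Rbbp7, a histone-binding subunit and the most abundant gene of the list, was at 265.4 ± 6.55, 204.6 ± 13.4 and 254.9 ± 16.9 TPM. Sin3b was the gene that rose with OVA (log2 change 0.26, adjusted p = 0.00223). The scaffold gene Sin3a fell by 0.95 and rose by 0.37, and the deacetylase gene Hdac1 differed by -0.17 with OVA, not called (adjusted p = 0.0709), and rose by 0.59 with citraconate added.

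Among 14 coactivator genes, 2 rose and 4 fell with OVA, and 4 rose and 2 fell in OVA/Citra against OVA. These counts turned to 4 higher and 2 lower, and to 2 higher and 7 lower, under median-of-ratios scaling, so no direction can be given for that list. In the main fit 32.1% of all tested genes were higher and 39.8% lower with OVA. The shares were 37.8% higher and 21.2% lower in OVA/Citra against OVA. Ruvbl1, an ATPase of chromatin remodelling complexes, rose by 0.34 with OVA (adjusted p = 0.000337), and the remodeller gene Ep400 fell by 0.48 (adjusted p = 0.00825). Smarca4, the most abundant gene of the list, was at 114.0 ± 6.56, 103.1 ± 6.51 and 117.3 ± 2.17 TPM. Trrap, a scaffold of histone acetyltransferase complexes, rose by 0.40 with citraconate added (adjusted p = 0.00574), and Wdr5 fell by 0.51 (adjusted p = 0.000128).

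MYC is a short-lived protein, and 18 tested genes act on its stability. With OVA 5 of them rose and 9 fell (median -0.15), and in OVA/Citra against OVA 8 rose and 3 fell (median 0.19). In percent, 27.8% rose and 50.0% fell, beside 32.1% and 39.8% of all genes, and then 44.4% rose and 16.7% fell, beside 37.8% and 21.2%, so the counts lie near the background. Under median-of-ratios scaling the latter count was 7 higher and 5 lower (median 0.05). Usp28, a deubiquitinase that stabilises MYC, was at 14.4 ± 1.69, 1.54 ± 0.358 and 3.73 ± 1.01 TPM, with log2 changes of -2.60 (adjusted p = 4.52e-07) and 0.89 (0.00121). Fbxw7, the ubiquitin ligase subunit that targets MYC, differed by -0.07 with OVA, not called (adjusted p = 0.481), and rose by 0.56 with citraconate added (adjusted p = 0.000462). Set, an inhibitor of the phosphatase PP2A and the most abundant gene of the list, rose by 0.48 and fell by 0.39. Aurka, a kinase that stabilises MYCN protein, fell by 1.02 and rose by 0.49. Fbxo32, another ubiquitin ligase subunit, fell by 1.02 and rose by 1.09.

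The genes whose profiles over the 9 libraries lay closest to Myc were Socs1, Pim2, Fam160a2, Gpr146, Ptms and Ttyh3. Likeness was the root mean square difference of log2(TPM + 1) after each gene's own mean was removed, over the 8616 genes averaging 5 TPM or more. It was 0.0893 for Socs1, an inhibitor of cytokine signalling, and 0.0988 for Pim2, a cytokine-induced kinase. Socs1 was at 83.3, 18.8 and 68.3 TPM and Pim2 at 315.6, 66.7 and 277.9 TPM in CTRL, OVA and OVA/Citra. Within the network Mxi1 was nearest to Myc, at 0.186 and 16th among all genes compared, while Mycn was at 1.29 and Mlx at 1.14.

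For the other members the closest profiles were B4galnt4, Nlrp3 and Slc17a9 for Mycn, Zfp106, Dynll2 and Arfip2 for Max, and Zfp523, Smox and Cd69 for Mxd1. They were Pyhin1, Fam189b and F2rl1 for Mxd3, Trib1, Birc2 and Dgkz for Mxd4, and Hdac7, Gbp2 and Fam160a2 for Mxi1. For Mnt they were Spag7, Txlna and Dus1l, and for Mlx Emc2, Dcaf13 and Mrpl36. All profiles share the same 9 libraries in 3 groups, so likeness describes mainly the group means and carries no test.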

How the data were processed

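Total RNA was sequenced, per the labels' protocols. The authors deposited 1 table of TPM values per gene for the 9 libraries, headed with another unit name but with the same sum in each library, as TPM has. Salmon, Trim Galore 0.5.0 and GRCm39 are the tools and build named per the submitters' processing notes, with no role or order. Which program counted the reads behind the TPM values is not stated. The TPM of every one of the 16734 genes above 0 in at least 2 libraries came out as a whole number of reads times a gene factor (100% whole, within 0.0001 reads or 3e-08 of the count). Those reads give the depths stated and 1 alternative.

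The values were tested as log2(TPM + 1) with limma 3.58.1 in R 4.3.3 (trended variance), all 9 libraries in 1 fit, genes averaging 1 TPM or more in 1 of the groups or several, and Benjamini-Hochberg adjustment over 11971 genes. The fit was tested on simulated data. Groups came from the labels, by title and treatment. The label of OVA/Citra replicate 1 is worded differently from those of its replicates. Whether that library was handled apart was not tested. The members and gene lists were chosen with earlier results of these data known. From each list the text names, per comparison, the 2 called genes with the largest change, the most abundant gene, and some genes called against the majority. Fbxw7 and Fbl fall outside that rule and were named after their values were seen. Mga, Mlxipl and Zbtb17 are also named outside it. Nearest genes pass over predicted genes, receptor segments and mitochondrial genes. Motifs and promoter sequences are from RefSeq (GRCm38.p6), and gene overlaps from a GRCm38 annotation, used for names only. Another pseudocount, other filters, scaling, variance models, a replicate block, recovered reads with voom and leaving out each library were tried. The list counts under these settings were chosen after seeing the data.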

Additional observations from a re-analysis of the deposited data

How the results depend on the processing

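Of 19 alternatives, none turned the direction of a member's change. Genes called stayed between 7236 and 9209 for OVA against CTRL, 6076 and 7237 for OVA/Citra against OVA, and 6075 and 7410 for OVA/Citra against CTRL. Under median-of-ratios scaling the second comparison had 3469 genes higher and 3596 lower, beside 4522 and 2543 here, and its median moved to 0. Voom on the recovered reads called 8633, 7128 and 7247 genes. Members called stayed at 8 in the first comparison and at 7 to 8 in the second, where Max was called without CTRL replicate 1 (adjusted p = 0.0459) or OVA/Citra replicate 2 (0.0391) and Mnt without OVA/Citra replicate 3 (0.0317). In OVA/Citra against CTRL they ran from 4 to 9, and from 4 to 8 when 1 library was left out, with 4 without OVA/Citra replicate 2. Over all members and comparisons, 481 log2 changes kept their side of the threshold, 13 gained a call and 19 lost one; the cause was not tested. With Mnt out of the sum, Myc over the antagonists was 4.927, 3.545 and 5.314 in CTRL, OVA and OVA/Citra, and the antagonists over Max 1.599, 0.4092 and 0.8798; here the removal of a summand is the cause. Replicate numbers did not pair the libraries throughout. Same-numbered deviations correlated between -0.012 and 0.304, 3 of 9 over 0.1, and a library correlated best with its own number in 7 of 18 cases. The replicate 2 libraries did go together: OVA with OVA/Citra at 0.304, and CTRL with these at 0.081 and 0.103. With libraries of other numbers they correlated negatively. Whether replicate 2 shared a batch or a source of cells was not tested. The fit with the replicate block called 8578, 7004 and 7128 genes and 8, 7 and 9 members, gaining Myc (adjusted p = 0.0427) and Mlx (0.0415) in OVA/Citra against CTRL. Mycl was too shallow to compare, and Mycn and Mxd3 rest on under 100 reads in their lowest libraries.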

Other observations

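A neighbour of Myc and a MYC target outside the lists are added here, both chosen after their values were seen. Pvt1, the long noncoding RNA gene next to Myc, was at 4.64 ± 0.323 TPM in CTRL, 2.41 ± 0.357 in OVA and 3.63 ± 0.431 in OVA/Citra (SD, n = 3). Its log2 change was -0.73 with OVA (adjusted p = 0.000335, limma) and 0.44 with citraconate added (adjusted p = 0.0103), or 0.32 relative to the median of all genes. Its groups therefore stood in the order of Myc at a far lower level. OVA/Citra differed from CTRL by -0.29, not called (adjusted p = 0.0632). Mir17hg, the host transcript of the miR-17-92 cluster and a known MYC target, was at 3.62 ± 1.10, 0.896 ± 0.177 and 2.69 ± 0.812 TPM. It fell by 1.26 on the log2 scale with OVA (adjusted p = 0.00025) and rose by 0.94 with citraconate added (adjusted p = 0.00269), or 0.81 relative to the median. For Mir17hg, OVA/Citra differed from CTRL by -0.33, not called (adjusted p = 0.188, limma), and these groups overlapped.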
